A study of Oryctolagus cuniculus with 6 samples.

Results

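IL1B, IL1RN, CXCL8 and LIF are secreted signals that inflamed tissue makes, and all of them carried more reads in the test libraries than in the controls. The rule that chose them takes the rows of the deposited expression table with these symbols. It finds all 4 among 16367 genes, and all 4 also passed the low-count filter that left 12740 genes to be tested. They were picked because earlier work on the same counts had shown them higher in test tissue. Their own values are therefore a description with no test, and tests are reserved for other genes of the pathway.

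The samples are rabbit tissue (Oryctolagus cuniculus), in 3 libraries titled test and 3 titled control. The source is given as subcutaneous tissue on every sample, while the title of the series speaks of perichondral tissue, the sheath around cartilage. No treatment, strain, age, sex or time is given for either group, and nothing says whether the libraries come from separate animals, so p-values measure only the spread between these libraries, which may be technical. RNA depleted of ribosomal RNA was sequenced, and reads were counted per gene.

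Interleukin-1 beta, the product of IL1B, is made as an inactive precursor by activated macrophages and neutrophils and is cut to its active form by caspase-1 inside an inflammasome. It binds the receptor IL1R1, which recruits the accessory chain IL1RAP and signals through IRAK kinases and TRAF6 to NF-kappa B and AP-1. The receptor antagonist, the product of IL1RN, occupies the same receptor without signalling, and IL1R2 is a decoy receptor that captures the ligand. CXCL8 (interleukin-8) attracts neutrophils through CXCR1 and CXCR2. LIF, leukemia inhibitory factor, signals through LIFR paired with IL6ST (gp130) to JAK kinases and STAT3, and both CXCL8 and LIF are known to be induced by interleukin-1 in stromal cells.

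Total counts were 17820537 to 21199562 in the test libraries and 21923246 to 23105606 in the controls, so every test library was shallower. The 13 mitochondrially encoded genes took 6.97% to 7.78% of test counts and 10.1% to 13.3% of control counts. Levels below are CPM, counts relative to the library total after edgeR's TMM scaling for composition. The part of the mitochondrial share in the results was not tested. Statements on counting error cover the counting of reads only, because the table holds no molecular identifiers. Fibroblast and cartilage markers were abundant in all libraries, with summed levels of 18069 to 21093 CPM in test and 29672 to 42192 CPM in control libraries for 10 fibroblast genes. The sums for 10 cartilage genes were 5350 to 7306 CPM in test and 2863 to 6468 CPM in control libraries.

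In bulk tissue, more cells that make a transcript and more transcript per cell cannot be told apart, and this holds for every level below. IL1B (ENSOCUG00000023958), the agonist, had 983, 1153 and 1315 counts in test replicates 1 to 3, against 636, 712 and 526 counts in control replicates 1 to 3. On the CPM scale this was 55.6, 58.0 and 63.2 in test libraries and 26.3, 32.7 and 23.3 in control libraries. The lowest test library stood 1.70-fold above the highest control, which was control replicate 2. Means were 58.9 ± 3.89 CPM in test and 27.4 ± 4.76 CPM in control tissue (SD, n = 3 each), a log2 fold change of 1.10 with a standard error of 0.16, or 2.15-fold.

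IL1RN (ENSOCUG00000004161), the antagonist, had 6883, 6505 and 6867 counts in test replicates 1 to 3, against 3746, 2592 and 2658 counts in control replicates 1 to 3. Its levels were 389.5, 327.2 and 330.1 CPM in test libraries and 154.7, 118.9 and 118 CPM in control libraries. Replicate 1 was the highest of its group on both sides, and the groups did not overlap. The means of 348.9 ± 35.1 CPM in test and 130.5 ± 21 CPM in control tissue (SD, n = 3 each) gave a log2 fold change of 1.42 with a standard error of 0.14, or 2.67-fold.

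CXCL8 (ENSOCUG00000011835), the neutrophil attractant, had 3530, 3689 and 4598 counts in test replicates 1 to 3, against 1265, 1589 and 1131 counts in control replicates 1 to 3. Its levels were 199.7, 185.6 and 221.1 CPM in test libraries and 52.3, 72.9 and 50.2 CPM in control libraries. As for IL1B, control replicate 2 was the highest control, and the lowest test library was still 2.55-fold above it. The means were 202.1 ± 17.9 CPM in test and 58.4 ± 12.5 CPM in control tissue (SD, n = 3 each), a log2 fold change of 1.79 with a standard error of 0.16, or 3.46-fold.

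LIF (ENSOCUG00000003768), the gp130 cytokine, was the scarcest by reads, with 393, 271 and 567 counts in test replicates 1 to 3, against 98, 90 and 82 counts in control replicates 1 to 3. Its levels were 22.2, 13.6 and 27.3 CPM in test libraries and 4.05, 4.13 and 3.64 CPM in control libraries. The control libraries sat close together, while test replicate 3 held 2.0-fold the level of test replicate 2. The means were 21 ± 6.89 CPM in test and 3.94 ± 0.262 CPM in control tissue (SD, n = 3 each), a log2 fold change of 2.42 with a standard error of 0.28, or 5.34-fold.

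**Figure D1:**
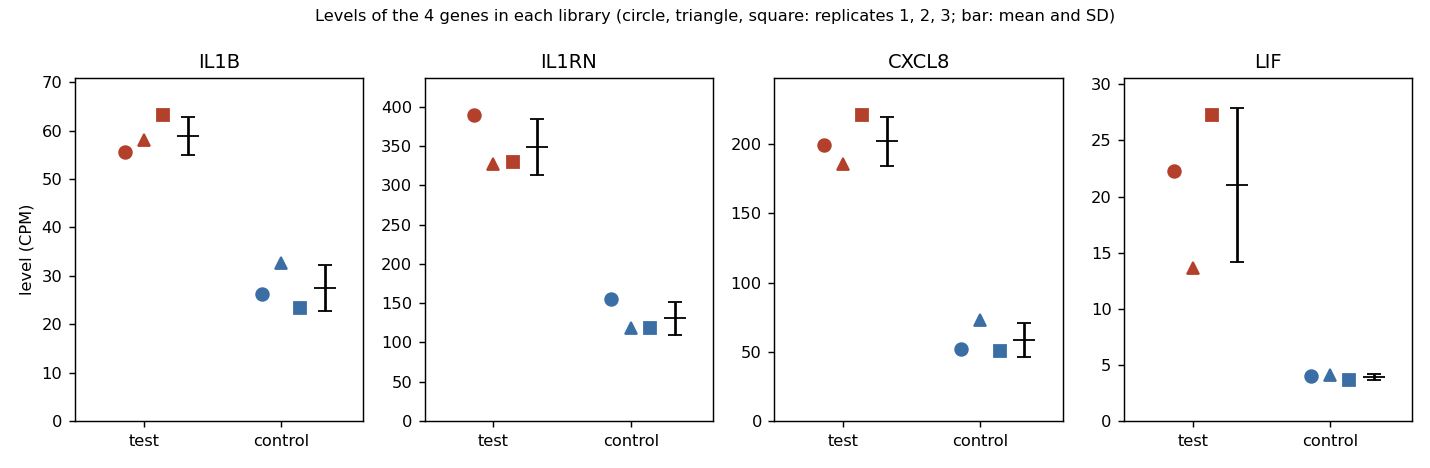
Level in CPM (vertical axes, each from 0) of IL1B, IL1RN, CXCL8 and LIF in the test and control libraries, with a marker for each replicate and a bar for the mean and SD of 3 libraries. In every panel the 3 test libraries lie above the 3 controls, and LIF has the widest spread among test libraries, 13.6 to 27.3 CPM.

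For all 4 genes every test library was above every control library, as was so for 18.4% of all tested genes, and the adjusted edgeR test placed 6.84% of all tested genes higher in test tissue. These shares are given for scale only, since the genes were chosen on this difference. In the order of log2 fold changes over the 12740 tested genes, LIF stood at rank 99, CXCL8 at 201, IL1RN at 351 and IL1B at 624. The fold changes were not tested against each other.

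Spread within groups differed among the genes. The coefficient of variation among test libraries was 6.59% for IL1B, 10.1% for IL1RN, 8.84% for CXCL8 and 32.8% for LIF. Among control libraries it was 17.4% for IL1B, 16.1% for IL1RN, 21.5% for CXCL8 and 6.65% for LIF. Counting error alone would give 4.94% for LIF in test and 10.5% in control libraries, so the spread of LIF exceeded counting error in test libraries and lay within it in controls. For the other 3 genes counting error was 1.22% to 4.0%, below the observed spread in both groups.

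IL1B and CXCL8 deviated in the same direction in each library, and IL1RN shared that direction only in control replicate 3 and test replicate 2. On the log2 scale, control replicate 2 lay 0.27 above its group mean for IL1B and 0.34 above for CXCL8, against -0.12 for IL1RN. Control replicate 1 lay 0.26 above the group mean for IL1RN, against -0.05 for IL1B and -0.14 for CXCL8. Control replicate 3 was below the mean for IL1B, CXCL8 and IL1RN, at -0.22, -0.20 and -0.13. Among test libraries replicate 3 was the highest for IL1B, CXCL8 and LIF, at 0.10, 0.13 and 0.43 above the mean, and replicate 1 was the highest for IL1RN, at 0.16. Test replicate 2 was at -0.02 for IL1B, -0.12 for CXCL8 and -0.09 for IL1RN. The lowest test library was replicate 1 for IL1B and replicate 2 for CXCL8. Each of these is a single library, so the pattern is a description of these 6 libraries.

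Ratios of raw counts within a library need no scaling between libraries. They do depend on transcript length, so only their change from library to library is read here. IL1RN counts per IL1B count were 7.0, 5.64 and 5.22 in test replicates 1 to 3, against 5.89, 3.64 and 5.05 in control replicates 1 to 3. The groups overlapped, with means of 5.96 ± 0.93 in test and 4.86 ± 1.14 in control tissue (SD, n = 3 each), a difference within the spread between libraries. Counting IL1A with IL1B as agonists gave 4.12, 3.73 and 3.0 IL1RN counts per agonist count in test libraries and 3.84, 2.18 and 3.2 in controls, again with overlap.

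CXCL8 and LIF were each higher per IL1B count in every test library than in any control. CXCL8 counts per IL1B count were 3.59, 3.2 and 3.5 in test libraries and 1.99, 2.23 and 2.15 in control libraries, with means of 3.43 ± 0.204 in test and 2.12 ± 0.124 in control tissue (SD, n = 3 each). LIF counts per IL1B count were 0.400, 0.235 and 0.431 in test libraries and 0.154, 0.126 and 0.156 in control libraries. The other pairs overlapped between the groups. CXCL8 counts per IL1RN count were 0.513, 0.567 and 0.67 in test and 0.338, 0.613 and 0.426 in control libraries. LIF counts per CXCL8 count were 0.111, 0.0735 and 0.123 in test and 0.0775, 0.0566 and 0.0725 in control libraries. The choice of pairs was made after the data were seen.

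**Figure D2:**
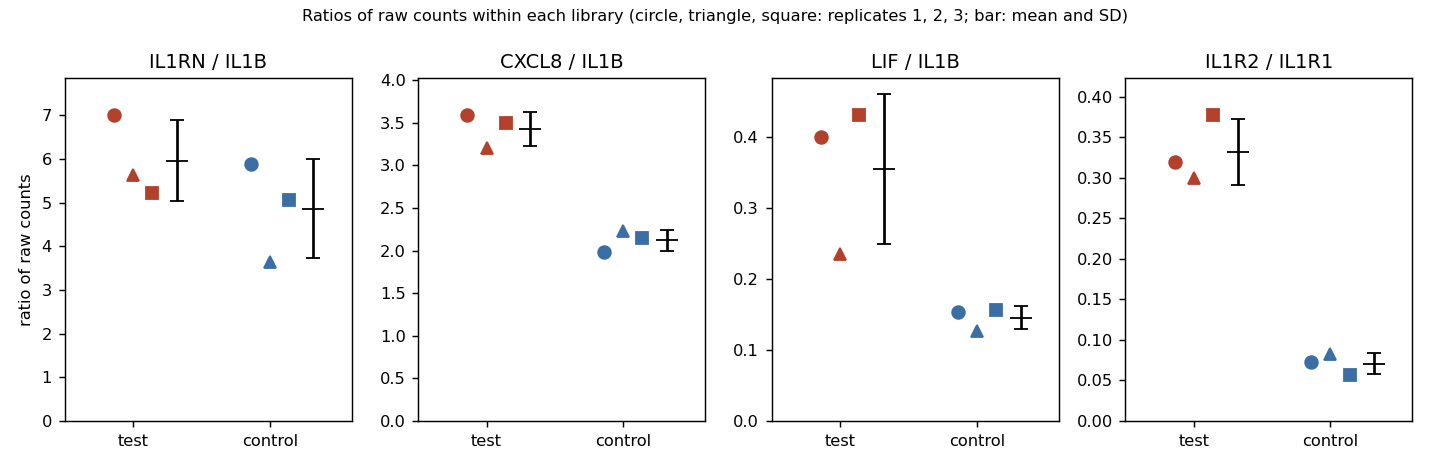
Ratios of raw counts within each library (vertical axes, each from 0) for IL1RN, CXCL8 and LIF per IL1B count and for the decoy receptor IL1R2 per count of the signalling receptor IL1R1, with a marker for each replicate and a bar for the mean and SD of 3 libraries. IL1RN per IL1B overlaps between test and control libraries, while the other 3 ratios are higher in every test library, IL1R2 per IL1R1 at 0.30 to 0.38 in test and 0.06 to 0.08 in control.

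Around the 4 genes, 125 further genes in 7 lists covered ligands, receptors, maturation, signalling, induced genes, neutrophil chemokines and the LIF family. Rows carried the symbol of 84 of them, and 80 had enough counts to be tested. The edgeR quasi-likelihood test called 15 of the 80 higher (18.8%) and 7 lower (8.75%) in test tissue at an adjusted p under 0.05, against 6.84% higher and 6.15% lower among all tested genes. The median log2 fold change of the 80 was -0.02, beside -0.004 over all tested genes. Leaving out a library changed the count, to 13 when test replicate 1 was dropped, 9 for test replicate 2, 8 for test replicate 3 and 11 for control replicate 3.

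Among ligands of the family, only IL1A and IL36G had a row besides IL1B and IL1RN. IL1A, the other agonist of IL1R1, rose to 38.9, 29.8 and 46.7 CPM in test libraries, against 14, 21.9 and 13.5 CPM in controls. Its log2 fold change was 1.22 ± 0.24 (SE, edgeR adjusted p = 0.0107), close to that of IL1B, and the groups did not overlap. The call ended without test replicate 3 (edgeR adjusted p = 0.0611). IL1A counts per IL1B count overlapped between the groups, at 0.70, 0.51 and 0.74 in test and 0.53, 0.67 and 0.58 in control libraries. IL36G, an epithelial member of the family, had 10, 1 and 10 counts in test and 1, 0 and 0 counts in control libraries, too few to be tested.

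Among receptors, the decoy receptor IL1R2 rose and IL18BP, the soluble protein that captures interleukin-18, rose too, while IL1RL1 (ST2), the receptor of interleukin-33, fell. The signalling receptor pair IL1R1 and IL1RAP was not called. Of 8 receptor and binding protein genes tested, 2 were higher and 1 was lower, 25% and 12.5% against 6.84% and 6.15% of all tested genes, with a median log2 fold change of -0.19. These 3 calls held under each of the 13 alternatives run.

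IL1R2 had 16.9, 18.5 and 19.6 CPM in test libraries, against 3.47, 6.19 and 3.55 CPM in controls, 4.16-fold higher (log2 fold change 2.06 ± 0.27, SE, edgeR adjusted p = 0.0019). The lowest test library was far above the highest control. IL1R1 had 52.7, 61.7 and 51.8 CPM in test libraries, against 48, 74.8 and 62.4 CPM in controls, with overlapping groups (log2 fold change -0.16 ± 0.17, SE, edgeR adjusted p = 0.581). Set against each other, there were 0.32, 0.299 and 0.378 IL1R2 counts per IL1R1 count in test libraries and 0.0722, 0.0828 and 0.0569 in controls.

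IL1RAP, the accessory chain, had 28.8 ± 1.59 CPM in test and 33.6 ± 8.57 CPM in control tissue (SD, n = 3 each) and was not called (edgeR adjusted p = 0.495). IL18BP averaged 79.7 ± 5.98 CPM in test and 38.2 ± 9.08 CPM in control tissue, which is 1.06 on the log2 scale (SD, n = 3 each, edgeR adjusted p = 0.00451). IL1RL1 averaged 13.1 ± 0.987 CPM in test and 35.2 ± 6.55 CPM in control tissue, 2.68-fold lower (edgeR adjusted p = 0.00185). IL1RL1 is also a mast cell marker, and the summed level of 5 mast cell genes, IL1RL1 among them, was 49.0 to 70.2 CPM in test and 89.9 to 152.1 CPM in control libraries. Much of that sum came from IL1RL1 itself and FCER1A, which averaged 18.9 CPM in test and 44.5 CPM in control tissue. KIT, MS4A2 and HDC, named after their values were seen, were not called (edgeR adjusted p = 0.672, 0.236 and 0.198). Each of them overlapped between the groups. The part of mast cells in the fall of IL1RL1 was not tested. IL1RL2, the receptor of the interleukin-36 cytokines, averaged 2.99 ± 0.59 CPM in test and 6.07 ± 1.31 CPM in control tissue (SD, n = 3 each, edgeR adjusted p = 0.0864), and the DESeq2 Wald test called it lower (adjusted p = 0.0412). IL18R1 and IL18RAP, the chains of the interleukin-18 receptor, had log2 fold changes of 0.17 and -0.65 and were not called (edgeR adjusted p = 0.771 and 0.226).

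For the maturation step, 7 of 17 listed genes were tested and edgeR called 0 of them, with 1 at an unadjusted p under 0.05 and 0 called by DESeq2 or limma-voom. NLRP3, the inflammasome sensor, had 17.3 ± 3.33 CPM in test and 20.2 ± 0.807 CPM in control tissue (SD, n = 3 each). PYCARD, its adaptor, had 13.8 ± 3.9 CPM in test and 11.1 ± 5.24 CPM in control tissue, and GSDMD, the pore former through which the cytokine leaves the cell, had 19.4 ± 3.19 CPM in test and 17.2 ± 5.73 CPM in control tissue. All 3 overlapped between the groups, and the 3 were picked for mention after their values were seen. CASP1, the converting enzyme, was not analysed here.

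The chemokine list held only 3 tested genes besides CXCL8, and none was called. CXCL5, a related chemokine for the same receptors, had 17.1, 9.21 and 19.2 CPM in test libraries, against 32.3, 11.9 and 15.9 CPM in controls, with overlapping groups (log2 fold change -0.40, edgeR adjusted p = 0.523). CXCR1 had 4.98, 5.08 and 2.21 CPM in test and 2.81, 0.78 and 3.06 CPM in control libraries, and CXCR2 had 2.15, 0.60 and 0.91 CPM in test and 3.22, 0.05 and 1.78 CPM in control libraries. EdgeR called 0 of these 3 genes, 0 had an unadjusted p under 0.05, and DESeq2 and limma-voom called 0. The standard error of the log2 fold change of CXCR2 was 1.03, and its counts in control replicates 1 to 3 were 78, 1 and 40. CXCL1, CXCL2, CXCL3, CXCL6 and PPBP were not analysed here.

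Around LIF, one related cytokine rose and the shared receptor chain, JAK1 and JAK2 fell. In the LIF and gp130 list, 1 of 13 tested genes was higher and 4 were lower, 7.69% and 30.8% against 6.84% and 6.15% of all tested genes, with a median log2 fold change of -0.54. CLCF1, another cytokine that signals through gp130, rose to 5.38, 5.89 and 7.60 CPM in test libraries, against 1.78, 2.61 and 1.07 CPM in controls (log2 fold change 1.79, edgeR adjusted p = 0.0237). LIFR, the specific receptor of LIF, had 4.24, 5.23 and 3.17 CPM in test libraries, against 4.50, 12.9 and 3.6 CPM in controls, with overlapping groups and control replicate 2 far above the rest (edgeR adjusted p = 0.354).

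IL6ST, the shared receptor chain, fell to 130.1, 130 and 131.2 CPM in test libraries, against 165.4, 232.2 and 192.1 CPM in controls (log2 fold change -0.59, edgeR adjusted p = 0.0201). The kinase JAK1 averaged 250.3 ± 5.36 CPM in test and 362.8 ± 16.2 CPM in control tissue, and JAK2 averaged 96 ± 6.75 CPM in test and 152.7 ± 29.6 CPM in control tissue (SD, n = 3 each, edgeR adjusted p = 0.0101 and 0.0186). STAT3, the main transducer of LIF, was measured at 348.1 ± 17 CPM in test and 327.3 ± 9.38 CPM in control tissue and was not called (edgeR adjusted p = 0.612).

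These 4 calls ended when some single libraries were left out. IL6ST, JAK2 and CLCF1 were not called when control replicate 3 or any one test library was left out (edgeR adjusted p from 0.0616 to 0.114). JAK1 was not called when any one test library was left out (0.0593 to 0.06). OSMR, the oncostatin M receptor, was not called with all libraries (log2 fold change 0.25, edgeR adjusted p = 0.494) and was called higher without control replicate 2 (log2 fold change 0.59, adjusted p = 0.0213). SOCS3 and OSM were not analysed here.

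**Figure D3:**
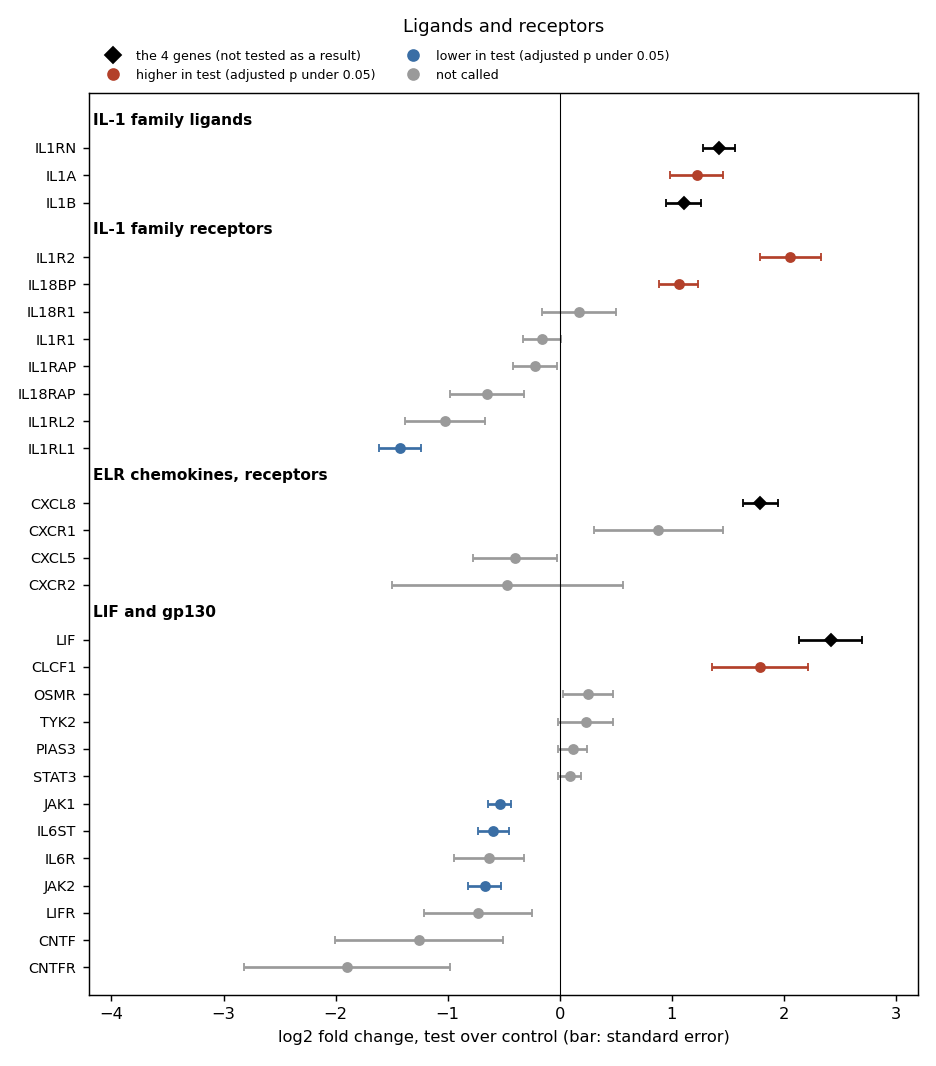
Log2 fold change of test over control with its standard error (horizontal axis) for tested ligands, receptors and signalling genes of the interleukin-1, CXCL8 and LIF systems, grouped by list. IL1RN, IL1A, IL1B, IL1R2, CXCL8, LIF and CLCF1 lie at 1.10 or more, while IL6ST, JAK1 and JAK2 lie between -0.54 and -0.67 and IL1RL1 at -1.42.

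Downstream of the receptor, 28 genes were tested, of which 4 were higher and 1 was lower, 14.3% and 3.57% against 6.84% and 6.15% of all tested genes, with a median log2 fold change of -0.04. The count of higher genes was 2 when test replicate 1 was dropped or total counts alone set the scale, and 1 for test replicate 2, test replicate 3 or control replicate 3. The AP-1 subunit FOS rose to 2140, 2547 and 2649 CPM in test libraries, against 1420, 1265 and 1547 CPM in controls (log2 fold change 0.79, edgeR adjusted p = 0.00418). Its partner JUN averaged 893.4 ± 125 CPM in test and 605.4 ± 71.6 CPM in control tissue (SD, n = 3 each, edgeR adjusted p = 0.0265). IRAK1, the receptor-proximal kinase, and TOLLIP, an adaptor that restrains it, rose by log2 fold changes of 0.80 and 0.73 (edgeR adjusted p = 0.0205 and 0.0341). TNFAIP3 (A20), an NF-kappa B feedback inhibitor that interleukin-1 induces, fell to 61.6, 57.4 and 52.4 CPM in test libraries, against 98, 74.1 and 84.9 CPM in controls (edgeR adjusted p = 0.0226).

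FOS held under all 13 alternatives, and the other 4 calls did not. IRAK1, TOLLIP and TNFAIP3 were not called when control replicate 3 or any one test library was left out (edgeR adjusted p from 0.0508 to 0.123), and JUN not without test replicate 2, test replicate 3 or control replicate 3 (0.0821 to 0.122). Scaling by total counts alone also ended the calls of IRAK1 and TOLLIP (0.0508 and 0.0717). NFKBIA and NFKBIZ, which NF-kappa B induces quickly, were not called, at 251 ± 4.83 and 253.1 ± 34.8 CPM in test and 241.8 ± 28.9 and 232.2 ± 12.5 CPM in control tissue (SD, n = 3 each), and were picked for mention after their values were seen.

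Of 22 other genes listed as induced by interleukin-1, in whatever cell type, 8 were higher and 1 was lower in test tissue, 36.4% and 4.55% against 6.84% and 6.15% of all tested genes. Their median log2 fold change was 0.13. They include IL1A and CXCL5, described above. MMP9, a gelatinase, rose to 140.4, 123.9 and 170.4 CPM in test libraries, against 49.9, 43.1 and 45.9 CPM in controls (log2 fold change 1.65, edgeR adjusted p = 0.000268). PLAU, the urokinase plasminogen activator, averaged 538 ± 46 CPM in test and 317.3 ± 18.2 CPM in control tissue, and HAS2, a hyaluronan synthase, averaged 113.8 ± 20.3 CPM in test and 61.3 ± 8.45 CPM in control tissue (SD, n = 3 each, edgeR adjusted p = 0.00325 and 0.00775).

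PTGS2, the inducible cyclooxygenase, rose to 449.3, 411.4 and 521.6 CPM in test libraries, against 137.6, 300.9 and 152.2 CPM in controls (log2 fold change 1.23, edgeR adjusted p = 0.0151). BDKRB1, the inducible bradykinin receptor, rose as well, with 26.7, 30.9 and 28.7 CPM in test and 6.94, 16.1 and 6.92 CPM in control libraries (edgeR adjusted p = 0.013). In both, as for IL1B and CXCL8, control replicate 2 was the highest control. The adhesion molecule ICAM1 rose by 0.52 on the log2 scale (edgeR adjusted p = 0.0167). ZC3H12A, an RNase that degrades cytokine transcripts, rose by 0.62 (edgeR adjusted p = 0.0268) and falls outside the rule for named genes, so it was chosen after its values were seen. BIRC3, an NF-kappa B target that blocks cell death, fell to 291.3, 290 and 263.5 CPM in test libraries, against 530.3, 511 and 473.4 CPM in controls, 1.79-fold lower (edgeR adjusted p = 0.00153).

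MMP9, PLAU, HAS2 and BIRC3 were called under all 13 alternatives. PTGS2 and ZC3H12A were not called when control replicate 3 or any one test library was left out (edgeR adjusted p from 0.0519 to 0.11), BDKRB1 not without test replicate 2, test replicate 3 or control replicate 3 (0.0537 to 0.0626) and ICAM1 not when any one test library was left out (0.0506 to 0.0879). The number of induced genes called higher was 5 when test replicate 1 was dropped, 4 for test replicate 2, 3 for test replicate 3 and 5 for control replicate 3. ZC3H12A was also not called with scaling by total counts alone (0.0745). CCL2 and TNF, which are classical partners of CXCL8 in inflamed tissue, were not called and are named after their values were seen, CCL2 at 537.8 ± 54.7 CPM in test and 510.9 ± 135 CPM in control tissue and TNF at 6.81 ± 1.59 CPM in test and 7.45 ± 4.74 CPM in control tissue (SD, n = 3 each). IL6, CXCL1 and SOD2 were not analysed here.

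**Figure D4:**
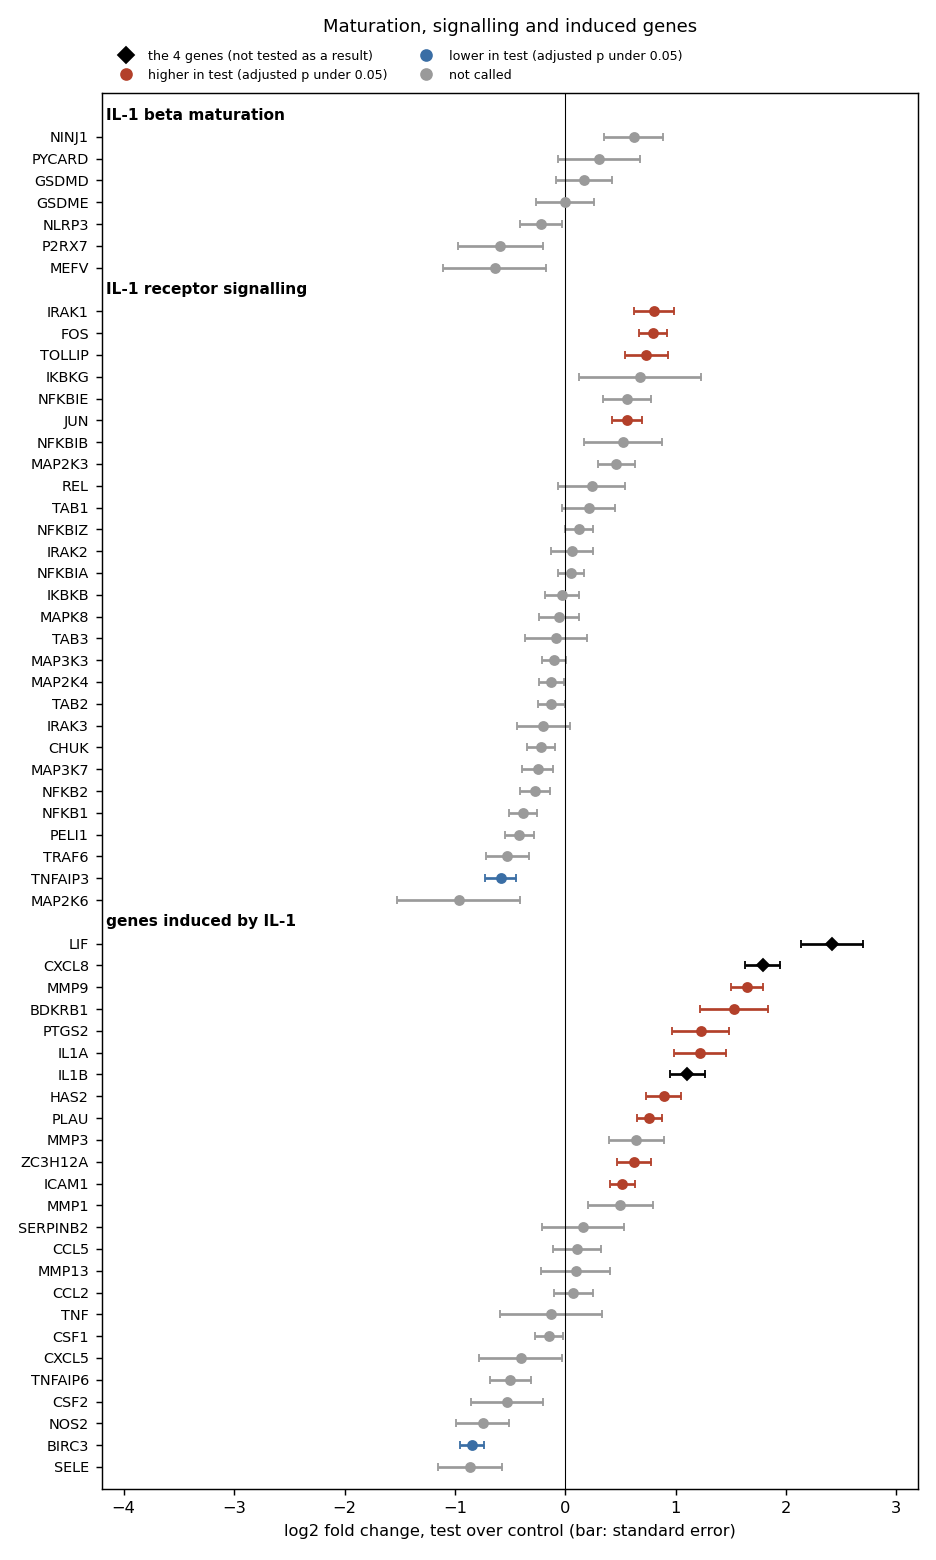
Log2 fold change of test over control with its standard error (horizontal axis) for tested genes of interleukin-1 beta maturation, of signalling below its receptor and for genes that interleukin-1 induces, ordered by fold change within each list. LIF and CXCL8, which were chosen for their rise in these counts, are drawn first among the induced genes, at 2.42 and 1.79. BIRC3, at -0.84, is the one induced gene called lower.

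Markers of cells that make or answer these cytokines moved unevenly. The counts of markers below stand beside 6.84% of all tested genes called higher and 6.15% called lower. Of 12 tested neutrophil genes, 3 were higher (25%) and 1 was lower (8.33%). The calgranulins S100A12, S100A8 and S100A9 rose by 3.11, 2.15 and 2.13 on the log2 scale (edgeR adjusted p = 0.000182, 0.000641 and 0.000845). The summed level of the 14 neutrophil genes with a row was 541 to 616.4 CPM in test and 300.4 to 328.5 CPM in control libraries. Much of that sum came from S100A8 and S100A9, at 233.8 ± 14 and 164 ± 15.1 CPM in test and 52.9 ± 19.9 and 37.5 ± 15.5 CPM in control tissue (SD, n = 3 each). Of the granule genes that define neutrophils, LTF had no count in any library and MPO had 10 counts in test replicate 1 and 0 in the other 5 libraries. The granule gene CAMP did have counts in every library, 14, 8 and 31 in test and 20, 29 and 20 in control replicates 1 to 3. CAMP was not called (edgeR adjusted p = 0.904) and is named after its values were seen.

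Of 15 tested macrophage genes, 5 were higher (33.3%) and 1 was lower (6.67%), with the dendritic cell and macrophage integrin ITGAX and the lysosomal glycoprotein CD68 up by 0.96 and 1.04 on the log2 scale and the scavenger receptor CD163 down by 0.84 (edgeR adjusted p = 0.00378, 0.00876 and 0.00382). CD68 was not called without test replicate 2 (0.0541). The summed level of 16 macrophage genes was 3343 to 3734 CPM in test and 3649 to 3789 CPM in control libraries. Without CD163 it was 2698 to 3030 CPM in test and 2241 to 2656 CPM in control libraries, higher in every test library. Of the osteoclast and giant cell genes, the 3 tested (CTSK, ATP6V0D2 and MMP9) were all higher. The sum over the 6 genes with a row was 6350 to 6736 CPM in test and 3128 to 3647 CPM in control libraries, and nearly all of it was CTSK. Without CTSK it was 170.6 to 206.6 CPM in test and 51.1 to 56.2 CPM in control libraries. Most of that remainder was MMP9, at 144.9 ± 23.6 CPM in test and 46.3 ± 3.43 CPM in control tissue (SD, n = 3 each). MMP9 is also counted among the induced genes above. CALCR and OSCAR had under 10 counts in every library. The fibroblast genes moved the other way, with 7 of 10 lower (70%), among them DPT, MFAP5 and COL3A1 (edgeR adjusted p = 0.000404, 0.000542 and 0.00277). Skeletal muscle genes were higher, 8 of 9 of them (88.9%). Their summed level was 149.6 to 171.3 CPM in test and 92.6 to 119.2 CPM in control libraries, much of it from MYBPC1, which was not called. Without MYBPC1 it was 62.8 to 81 CPM in test and 4.87 to 8.62 CPM in control libraries. The myosin light chain MYL1 had 20, 18.5 and 15.4 CPM in test libraries, against 0.21, 0.41 and 0.27 CPM in controls (edgeR adjusted p = 8.15e-05). The sums without single genes were chosen after the data were seen. B and plasma cell genes were lower for 4 of 8 (50%), with sums of 294.9 to 419.9 CPM in test and 689 to 1477 CPM in control libraries. The part of any of these cell types in the levels of IL1B, IL1RN, CXCL8 and LIF was not tested.

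Genes with the most similar profile over the 6 libraries were found by the root-mean-square difference of log2 CPM after each gene was centred on its own mean. Nearest to IL1B were ERRFI1, CTSV and COX14, at 0.10, 0.11 and 0.11. Nearest to IL1RN were TMEM258, PLPP2 and AOPEP, at 0.12, 0.15 and 0.16, and nearest to CXCL8 were LTK, CA9 and TGFBI, at 0.11, 0.13 and 0.13. LIF had no neighbour as close, with OLFM2, TMEM186 and DCLK1 at 0.22, 0.28 and 0.30. The distances among the 4 genes themselves ran from 0.29 between IL1B and IL1RN to 0.68 between IL1B and LIF. ERRFI1, an inhibitor of the epidermal growth factor receptor, showed the library order of IL1B, with 238.4, 258.3 and 324 CPM in test and 113.5, 153.9 and 97.3 CPM in control libraries.

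IL1B and IL1RN belong to one cluster of interleukin-1 family genes, in the RefSeq assembly mOryCun1.1 as in other mammals, so genes near the 4 members were also listed, a choice made after the data were seen. Among the nearest 3 genes with a row on each side, 19 genes besides the members themselves, 2 were higher, 1 was lower, 11 were not called and 5 had too few counts. Over all tested genes 6.84% were higher and 6.15% were lower. Genes without a row were passed over, so the listed genes lay 1 to 12 genes away in the assembly. All 3 calls were among the genes listed for IL1B, and IL1A was listed for IL1RN too. IL1A and the phosphate transporter SLC20A1, 2 and 5 genes from IL1B, were higher (edgeR adjusted p = 0.0107 and 0.00113). CKAP2L, a mitotic spindle gene 3 genes from IL1B, was lower (edgeR adjusted p = 0.0219). PSD4, next to IL1RN, had 37.6, 43.6 and 39.1 CPM in test and 51.8, 22.8 and 28.9 CPM in control libraries and was not called (edgeR adjusted p = 0.631). The 4 tested neighbours of CXCL8 had edgeR adjusted p-values of 0.237 to 0.909, and the 5 of LIF had 0.371 to 0.897.

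By the table's own annotation, read after the data were seen, IL1B, CXCL8 and LIF share the KEGG pathway of cytokine and receptor interaction, and IL1RN has no pathway. Of 115 other tested genes in it, 12 were higher (10.4%) and 9 were lower (7.83%) in test tissue by edgeR, with a median log2 fold change of -0.22. At least 2 of the 4 genes share 15 pathways, and the counts in these varied widely. In the NF-kappa B pathway, which holds IL1B and CXCL8, 10 of 58 other genes were higher and 11 were lower, 17.2% and 19%. In the TNF pathway, which holds IL1B and LIF, 7 of 78 were higher and 8 were lower, 8.97% and 10.3% against 6.84% and 6.15% of all tested genes. The other 12 pathways hold IL1B and CXCL8. The rheumatoid arthritis pathway had 11 of 44 higher and 1 lower, and the fatty liver disease pathway had 19 of 73 higher and 8 lower. In the NOD-like receptor pathway edgeR called 0 of 33 higher and 3 lower, with 0 higher at an unadjusted p under 0.05 and 0 called higher by DESeq2 or limma-voom.

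**Figure D5:**
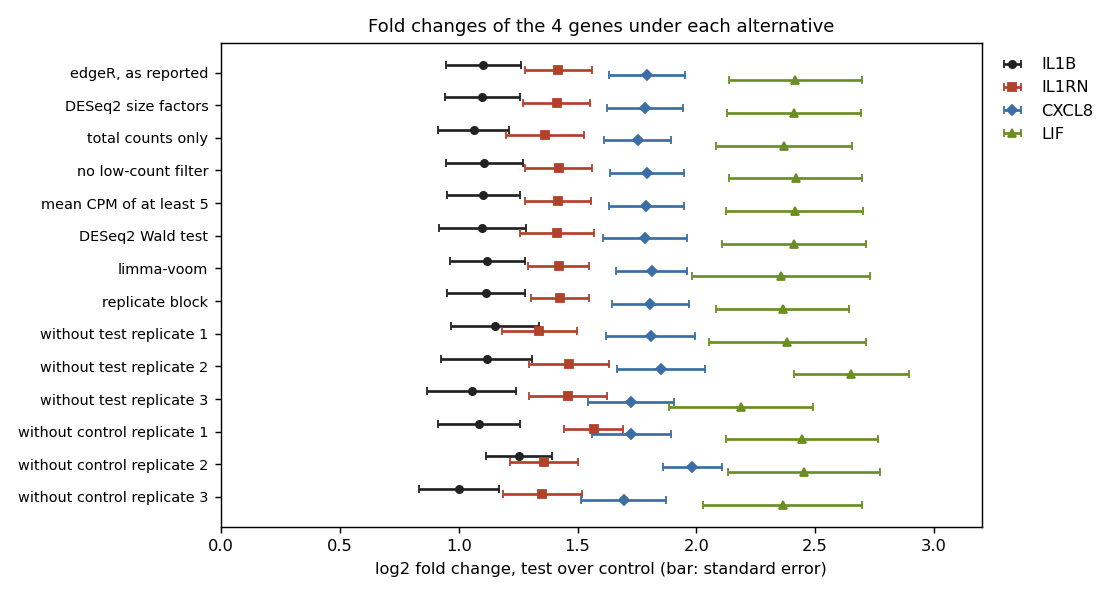
Log2 fold change of test over control with its standard error (horizontal axis) for IL1B, IL1RN, CXCL8 and LIF as reported and under each of 13 alternatives (rows). Every value is 1.0 or more, and LIF moves most, from 2.19 without test replicate 3 to 2.65 without test replicate 2.

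Under the 13 alternatives the log2 fold change ran from 1.0 to 1.25 for IL1B, from 1.34 to 1.57 for IL1RN, from 1.69 to 1.98 for CXCL8 and from 2.19 to 2.65 for LIF. The order of the 4 genes was the same in each of them, with IL1B lowest and LIF highest.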

How the data were processed

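Raw counts for 16367 protein-coding genes in 6 libraries were deposited in one table, per the file headers, and 5067 of the genes have no symbol. A further 6 columns of values normalized by the authors were not used. Cutadapt 1.9.3, HISAT2 and Cuffdiff are named in the submitters' processing notes, which do not say what each did. The build listed there is one of rat, while gene identifiers are of rabbit. Which program counted reads, whether by strand, and with which annotation is not given in the sources used here.

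Counts were tested with edgeR 4.0.16 in R 4.3.3 (quasi-likelihood, TMM, filterByExpr with a minimum count of 10 and total of 15, two-sided, no block). P-values were adjusted over 12740 genes and calls made under 0.05. Standard errors are the absolute log2 fold change over the root of the F statistic. Alternatives were DESeq2 size factors, total counts alone, no filter, a minimum mean CPM of 5, limma-voom (limma 3.58.1), Wald tests from DESeq2 1.42.0, the replicate number as a block, and leaving out each library. Log2 CPM used a prior count of 2. The tests were checked on simulated counts.

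The 4 members and the gene lists were chosen with earlier results of these data known. Named are the 4 members, all tested genes of the ligand, receptor and chemokine lists, in the other pathway lists up to 8 called genes with the smallest p besides the members, 6 fixed LIF pathway genes where tested, the 3 most similar genes per member and, from marker lists, up to 3 called genes. Some genes that are counted in the lists are not reported here by name. The other marker lists gave 0 of 5 dendritic and 0 of 5 T and NK cell genes called by edgeR (1 and 0 at an unadjusted p under 0.05, 0 by DESeq2 or limma-voom), 0 of 10 cartilage and 0 of 3 keratinocyte genes (3 and 1 at an unadjusted p under 0.05, with 1 cartilage gene called by DESeq2 and 1 by limma-voom), and 2 of 5 mast cell and 1 of 8 endothelial genes lower. Neighbouring genes were taken from the gene order of the RefSeq assembly mOryCun1.1, and sequences were not used here.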

Additional observations from a re-analysis of the deposited data

How the results depend on the processing

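The log2 fold changes of the 4 members kept their sign and moved by less than the spread between replicates under all 13 alternatives. The number of called genes over the whole table was 1655 (872 higher, 783 lower), and without single libraries it ran from 446 to 2163 (245 to 1185 higher, 201 to 978 lower). With total counts alone the split turned to 614 higher and 877 lower, 41.2% higher in place of 52.7%, and the median log2 fold change of all genes was -0.05. The 22 called pathway genes ran from 8 to 28 without single libraries (6 to 18 higher, 2 to 10 lower), and the DESeq2 Wald test called 11 lower in place of 7. With the replicate block 1681 genes were called, 1464 of them in common with the fit without it in the same direction, and among named genes no call ended or began. Same-numbered libraries deviated together by a correlation across genes of 0.08, -0.02 and 0.02, so the numbers were not taken to pair the libraries. Genes that were not called changed sign in some settings. Without single libraries the log2 fold change ran from -0.2988 to 0.0085 for IL1R1, from -0.0201 to 0.4306 for IL18R1, from -0.6658 to 0.1356 for CXCL5, from -1.1406 to 0.4182 for CXCR2 and from -1.0403 to 0.0597 for LIFR. For CXCR2 it was also 0.4422 with limma-voom and 0.1517 with the replicate block. The cause was not tested. IL36G had too few counts to be tested at this depth.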
